A study of Homo sapiens with 10 samples.

Results

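HMGA1, HMGA2, LIN28A, LIN28B, IGF2BP1, IGF2BP2 and IGF2BP3 are genes of 3 families that are used widely in the embryo and found in many tumours, most of them low in adult tissues, and their chromatin was examined here in MDAMB231 cells. The 7 genes were taken by name, out of 20098 protein-coding genes on chromosomes 1 to 22 and X, and every peak was kept that shared at least 1 base with a gene widened by 50 kb on each side. This gave 148 of the 128837 peaks in 4 lists. MDAMB231 is an established line of mesenchymal-like, triple-negative human breast cancer cells, and it was grown in DMEM with 5% FBS without treatment. ChIP-seq, which recovers the DNA carrying a given histone modification by means of an antibody, was performed for H3K4me1, H3K4me3 and H3K27Ac with 2 samples each and 1 input sample. FAIRE-seq, which recovers DNA that is free of nucleosomes after crosslinking with 1% formaldehyde, was performed on 2 samples with 1 input sample. Each assay had a single list of peaks called on both samples together, so no value below carries a replicate error and no test was made. The lists hold no read counts, so the depth behind a peak cannot be read from them. A region without a peak is one in which none passed the authors' threshold.

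HMGA proteins bind the minor groove of AT-rich DNA and bend it for other factors. LIN28 proteins bind the precursors of the let-7 microRNAs and block their maturation, whereas IGF2BP proteins bind mRNAs and protect or localise them. The families are linked, because let-7 represses the mRNAs of HMGA2, LIN28B and several IGF2BP genes. As to the marks, H3K4me3 lies around the start sites of genes, mostly but not only of those in use. H3K4me1 lies at enhancers and on the flanks of promoters, and H3K27Ac lies at promoters and enhancers that are active.

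Markers of the cell type are described next. They were listed with earlier results of these data known, so their peaks do not test the label of the cells. VIM, AXL, CD44, CAV1, ZEB1 and LAMB3 were listed as genes that cells of this kind use. Each had a promoter peak in all 4 lists (6 of 6 genes). The shares of all protein-coding genes were 67.3% (H3K4me3), 63.5% (H3K27Ac), 39.3% (FAIRE) and 20.0% (H3K4me1). Of 6 luminal or epithelial genes, 5 had a promoter peak for H3K4me3, 4 for H3K27Ac, 4 for FAIRE and 1 for H3K4me1. For H3K4me3, H3K27Ac and FAIRE these counts were not below the shares of all protein-coding genes. The hormone receptor genes ESR1 and PGR had H3K4me3 with scores of 1258 and 399.5 and no promoter peak for H3K27Ac or FAIRE. EPCAM, ESRP2 and KRT18 had promoter peaks for H3K4me3, H3K27Ac and FAIRE. CDH1, the E-cadherin gene, lacked H3K4me3 but had an H3K27Ac peak with a score of 538 and a low FAIRE peak with a height of 31.7.

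The 7 genes fell into those with marked promoters and those without. HMGA1, HMGA2, IGF2BP2 and IGF2BP3 had a promoter peak, defined as a peak within 1 kb of any annotated start site, for every histone mark (4 of 7 genes for H3K4me1, H3K4me3 and H3K27Ac alike). Among all protein-coding genes, 20.0% had a promoter peak for H3K4me1, 67.3% for H3K4me3 and 63.5% for H3K27Ac. A FAIRE promoter peak was found for HMGA1, IGF2BP2 and IGF2BP3 (3 of 7 genes), against 39.3% of all protein-coding genes. LIN28A, LIN28B and IGF2BP1 had no promoter peak in any list (3 of 7 genes), against 29.3% of all protein-coding genes. When the centre of the peak had to lie within 1 kb of a start, IGF2BP2 and IGF2BP3 alone had an H3K4me1 promoter peak (2 of 7 genes, against 8.64% of all protein-coding genes), and the same 2 alone had an H3K27Ac promoter peak (2 of 7, against 57.7%). With stricter peaks (a score of 100 or more, or a FAIRE height at or above the median), HMGA2 lost its H3K4me1 promoter peak (3 of 7, against 11.2% of all protein-coding genes) and HMGA1 its FAIRE promoter peak (2 of 7, against 24.4%). With 7 genes, the shares for H3K4me3 and FAIRE lay near the background, and how that for H3K27Ac compared with it depended on the rule. The H3K4me1 count rested on starts other than the canonical one, which had H3K4me1 within 1 kb at HMGA2 alone. HMGA1, HMGA2, IGF2BP2 and IGF2BP3 have 5, 6, 10 and 16 annotated starts, and any of these could give a promoter peak. With starts of protein-coding transcripts only, the H3K4me1 count stayed 4 of 7, against 16.4% of all protein-coding genes.

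**Figure D1:**
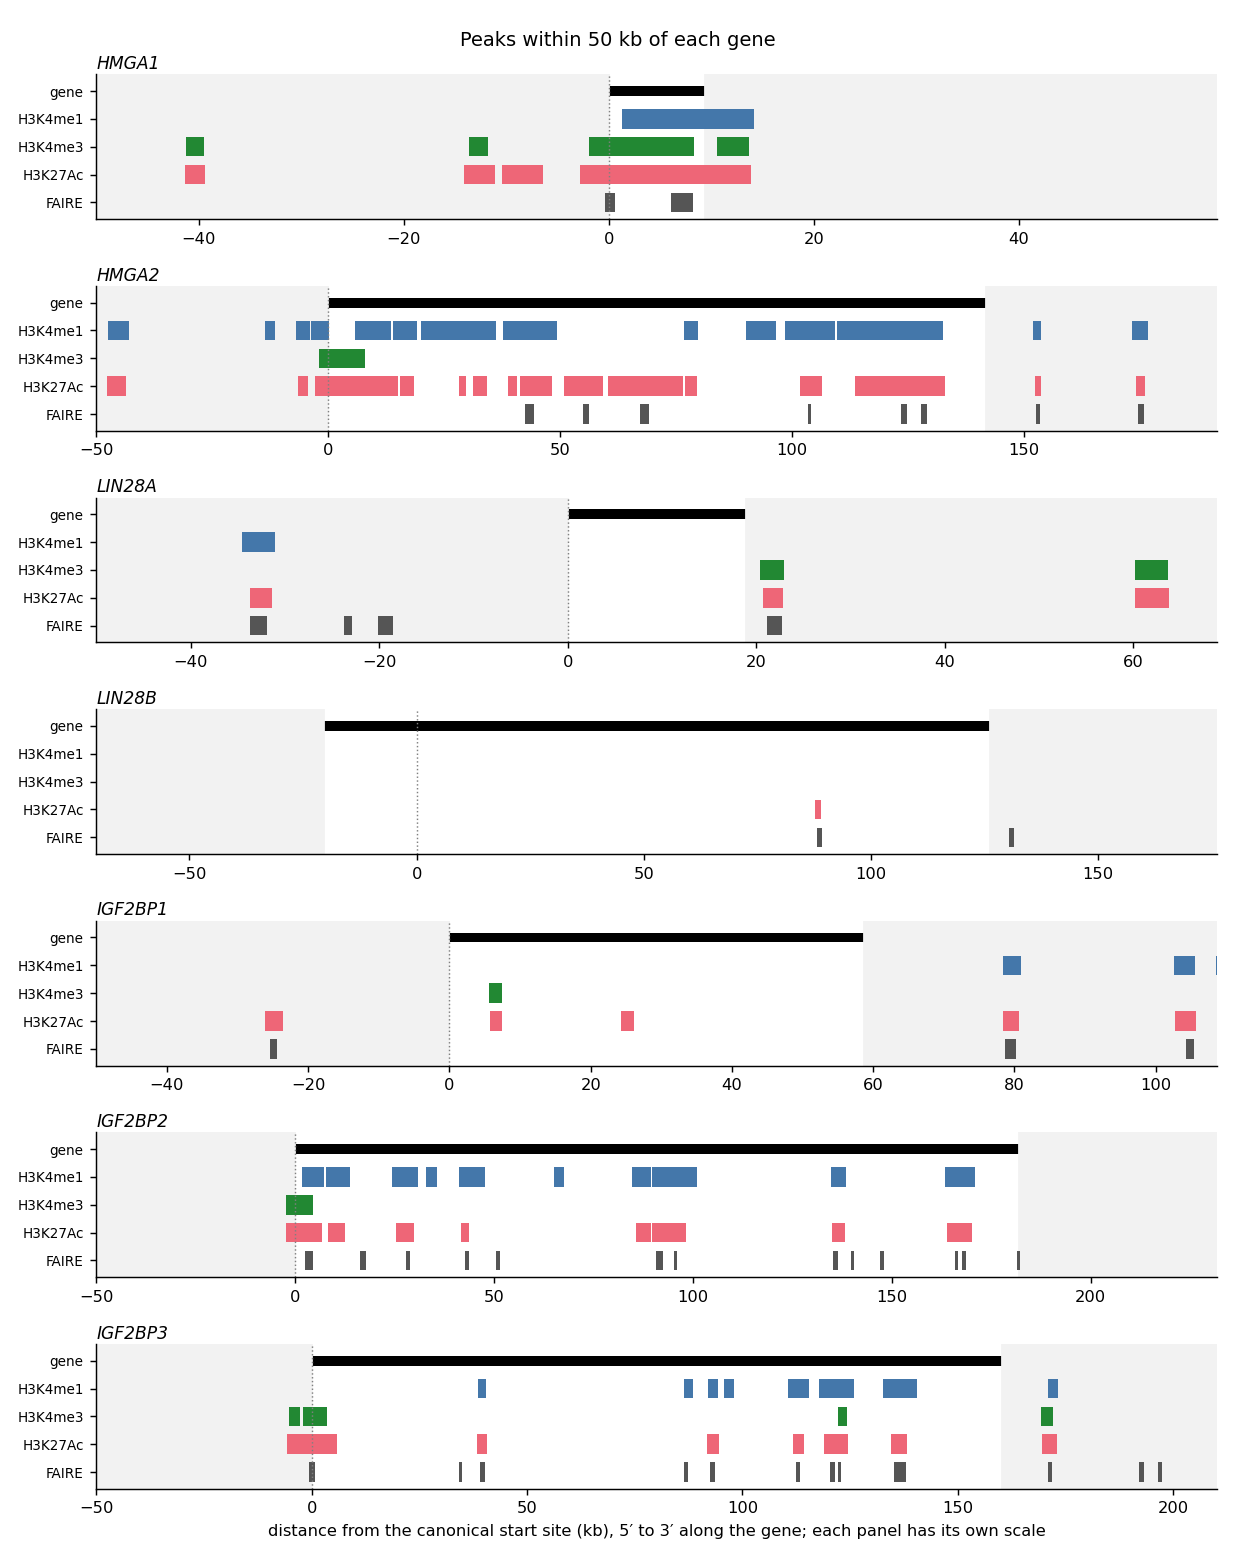
Peaks within 50 kb of each gene, drawn by distance in kb from the canonical start site along the gene, with the gene as a black bar, the 50 kb flanks shaded and 1 row for each list. HMGA2, IGF2BP2 and IGF2BP3 carry series of peaks inside the gene, and LIN28B has 3 peaks in all.

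The promoters of IGF2BP2, which was marked, and LIN28B, which was not, are shown because they are the extremes in CG dinucleotides among the promoters read here, and not as typical of marked and unmarked promoters. Each run is the 250 bases before the canonical start site in GRCh37, 5′ to 3′ along the gene, with CG dinucleotides in capitals. The run of IGF2BP2 lies at chr3:185542831-185543080 (minus strand) and that of LIN28B at chr6:105404732-105404981 (plus strand).
IGF2BP2 promoter: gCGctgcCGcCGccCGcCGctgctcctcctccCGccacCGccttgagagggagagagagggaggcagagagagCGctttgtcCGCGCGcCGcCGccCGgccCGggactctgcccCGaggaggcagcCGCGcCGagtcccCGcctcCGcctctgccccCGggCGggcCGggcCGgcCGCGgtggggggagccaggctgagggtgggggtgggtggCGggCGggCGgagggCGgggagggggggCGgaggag
LIN28B promoter: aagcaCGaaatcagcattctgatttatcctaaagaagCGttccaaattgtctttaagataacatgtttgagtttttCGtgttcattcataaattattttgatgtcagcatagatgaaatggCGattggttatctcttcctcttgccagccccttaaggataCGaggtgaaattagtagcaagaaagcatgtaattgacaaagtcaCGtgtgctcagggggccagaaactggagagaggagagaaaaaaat
IGF2BP2 had 32 CG dinucleotides in these 250 bases and a GC content of 81.6%, and HMGA1 had 30 and 74.8%. The median over 19819 protein-coding promoters was 18 CG dinucleotides and 63.2%. The marked promoter of IGF2BP3 had 15 CG dinucleotides, below that median. LIN28A had 9 and LIN28B had 6, and LIN28B had a GC content of 38.4%. These values cover 5 of the 7 genes, so they do not show whether CG dinucleotides separate marked from unmarked promoters in the whole group.

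Exact matches to 6 motifs were sought on both strands of the same 250 bases of these 5 promoters. The GC box GGGCGG was found at HMGA1 and IGF2BP2 (2 of 5 genes), against 59.2% of all promoters. The E-box CACGTG was found at LIN28B and IGF2BP3 (2 of 5), against 7.87% of all promoters. IGF2BP3 had 2 such matches. CCAAT was found at LIN28B only, against 34.2% of all promoters. None of the 5 held TATAAA, the AP-1 motif TGANTCA or the TEAD motif GGAATG, which were found in 9.28%, 4.7% and 9.85% of all promoters. None of the 6 motifs contains another, and a match is a description of letters and not of a bound factor.

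HMGA1 and HMGA2 encode the architectural HMGA proteins, and both had broad promoter domains. The H3K4me3 peak over the HMGA1 start sites was 10188 bp wide (chr6:34202752-34212939) and took in the whole of the gene but its last part. It ranked 24 in width among the 13532 protein-coding genes with an H3K4me3 promoter peak, whose median width was 2973 bp. The corresponding HMGA2 peak was 9802 bp wide (chr12:66216300-66226101) and ranked 33. H3K27Ac spread further than H3K4me3 at both genes. It covered 16604 bp at HMGA1, from 34201859 to 34218462, and 17842 bp at HMGA2, from 66215421 to 66233262, against a median promoter peak of 3251 bp. The HMGA1 peak for H3K27Ac also took in the promoter of SMIM29, the neighbouring gene, so its width does not belong to HMGA1 alone. IGF2BP2 and IGF2BP3 had narrower but still wide H3K4me3 peaks, of 6856 bp and 5673 bp. All 4 marked members therefore had an H3K4me3 peak of 5 kb or wider, against 6.32% of the genes with such a promoter peak. Their scores, which MACS derives from the p-value of a peak as minus 10 times its log10, were all 3100, a ceiling reached or passed by 56.8% of the H3K4me3 list, so that score could not rank them.

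**Figure D2:**
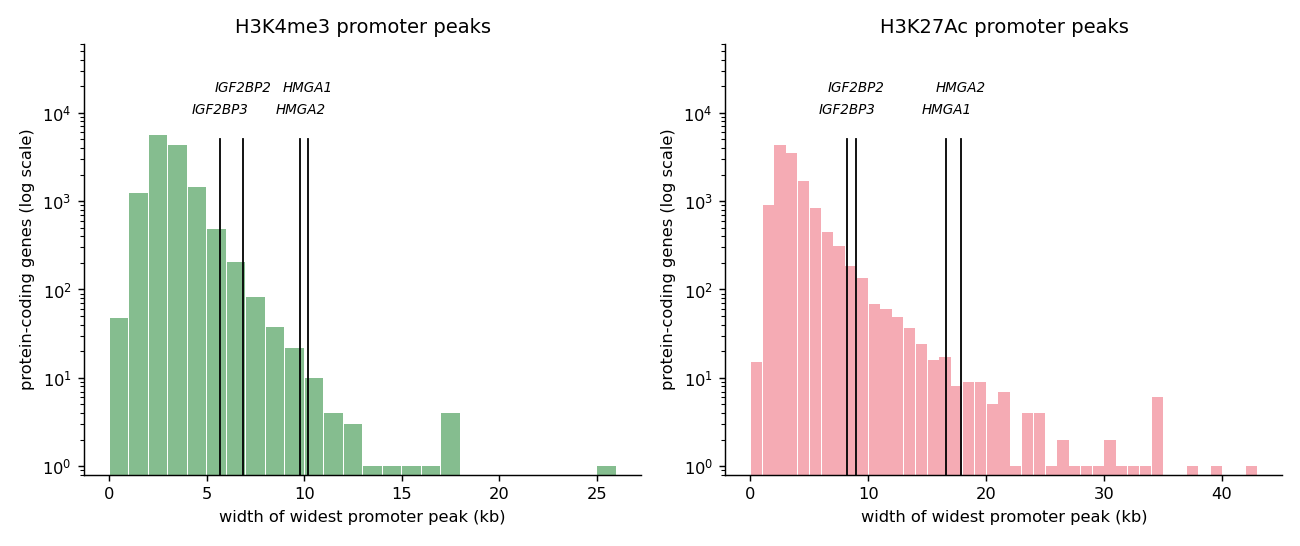
Width in kb of the widest promoter peak of each protein-coding gene for H3K4me3 (left) and H3K27Ac (right), in classes of 1 kb with the number of genes on a log scale. Vertical lines mark the members with such a peak, and all 4 lie to the right of the median widths of 2973 bp and 3251 bp.

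H3K4me1 was placed differently at the 2 HMGA promoters. At HMGA1 it formed a single peak of 12800 bp (score 389.95) that began 1313 bp inside the canonical start and ran past the end of the gene over the promoter of SMIM29, whose own H3K4me3 peak was 3132 bp wide. The canonical HMGA1 start thus had H3K4me3 and H3K27Ac without H3K4me1, and it was internal starts that brought the H3K4me1 peak within 1 kb. At HMGA2 a weak H3K4me1 peak of 3730 bp (score 97.7) lay on the upstream side and ended just inside the gene at 66218380. A stronger H3K4me1 peak of 7898 bp (score 520.2) followed beyond the last annotated HMGA2 start, in intron 2. It covered the start of a lncRNA at 66224530, which also lay inside the HMGA2 H3K4me3 peak. The flanks of the H3K4me3 domain were thus marked on both sides at HMGA2. A lncRNA starts 125 bp from an HMGA1 start and the pseudogene RPSAP52 starts 1004 bp from an HMGA2 start, both inside the same H3K4me3 peaks, so that these marks cannot be assigned to 1 transcript.

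Open chromatin did not follow the histone marks at the HMGA2 promoter. HMGA1 had a FAIRE peak over its canonical start (height 42.6, chr6:34204300-34205196), lower than the median height of 61.1 in the whole list. HMGA2 had none, and its nearest FAIRE peak lay 42420 bp into the gene. A promoter with H3K4me3 and no FAIRE peak was not rare, since 44.5% of the protein-coding genes with an H3K4me3 promoter peak had none, and HMGA2 was 1 of the 4 marked members. The other 3 FAIRE peaks of HMGA1 lay end to start in introns 4 and 5, the tallest with a height of 91.0.

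Upstream of HMGA1, 2 H3K4me3 peaks of 1743 bp (score 339, centre at -40.4 kb) and 1900 bp (score 578, centre at -12.7 kb) shared bases with H3K27Ac peaks and had no FAIRE or H3K4me1. Both were more than 1 kb from every annotated start site of any gene. Such peaks made up 3 of the 13 H3K4me3 peaks of the members, against 20.6% of the whole H3K4me3 list. The third lay inside IGF2BP1 and is described with that gene.

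HMGA2 had the most H3K4me1 and H3K27Ac of the 7 genes, and most of it lay inside the gene. Its 241.83 kb with flanks held 15 H3K4me1 peaks, 16 H3K27Ac peaks and 10 FAIRE peaks, but 1 H3K4me3 peak. H3K4me1 peaks covered 42.3% of it, which ranked 8 among the 20098 genes, and H3K27Ac peaks covered 39.5%, which ranked 57. The medians over all protein-coding genes were 2.44% and 6.17%. Intron 3 alone held the centres of 8 H3K4me1, 11 H3K27Ac and 7 FAIRE peaks. The widest H3K4me1 peak there was 22781 bp (chr12:66327982-66350762, score 643), the width that ranked 13 in the whole H3K4me1 list, and it overlapped the widest H3K27Ac peak of the gene, of 19287 bp (score 2342). The H3K4me1 peak with the highest score of any member, 1147, was centred 43.5 kb into the gene and was 11582 bp wide. An H3K27Ac peak of 14036 bp with a score of 3100, centred at 67.4 kb, shared no base with H3K4me1, so the marks did not coincide throughout the intron.

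FAIRE resolved narrow sites inside these domains. The tallest FAIRE peak of all members was in intron 3 of HMGA2, 124.26 kb from the start (chr12:66341878-66343176, height 167.4), and ranked 376 among 46552 FAIRE peaks. This peak covered an annotated start of a lncRNA, at 66342259, and lay inside the widest H3K4me1 and H3K27Ac peaks of the gene. The next tallest FAIRE peak of HMGA2, with a height of 143 and a centre at 67.7 kb, lay inside the H3K27Ac peak that had no H3K4me1. All 10 FAIRE peaks of HMGA2 shared a base with a histone peak. The reverse was less frequent, because 5 of 15 H3K4me1 peaks and 7 of 16 H3K27Ac peaks of HMGA2 shared a base with a FAIRE peak.

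**Figure D3:**
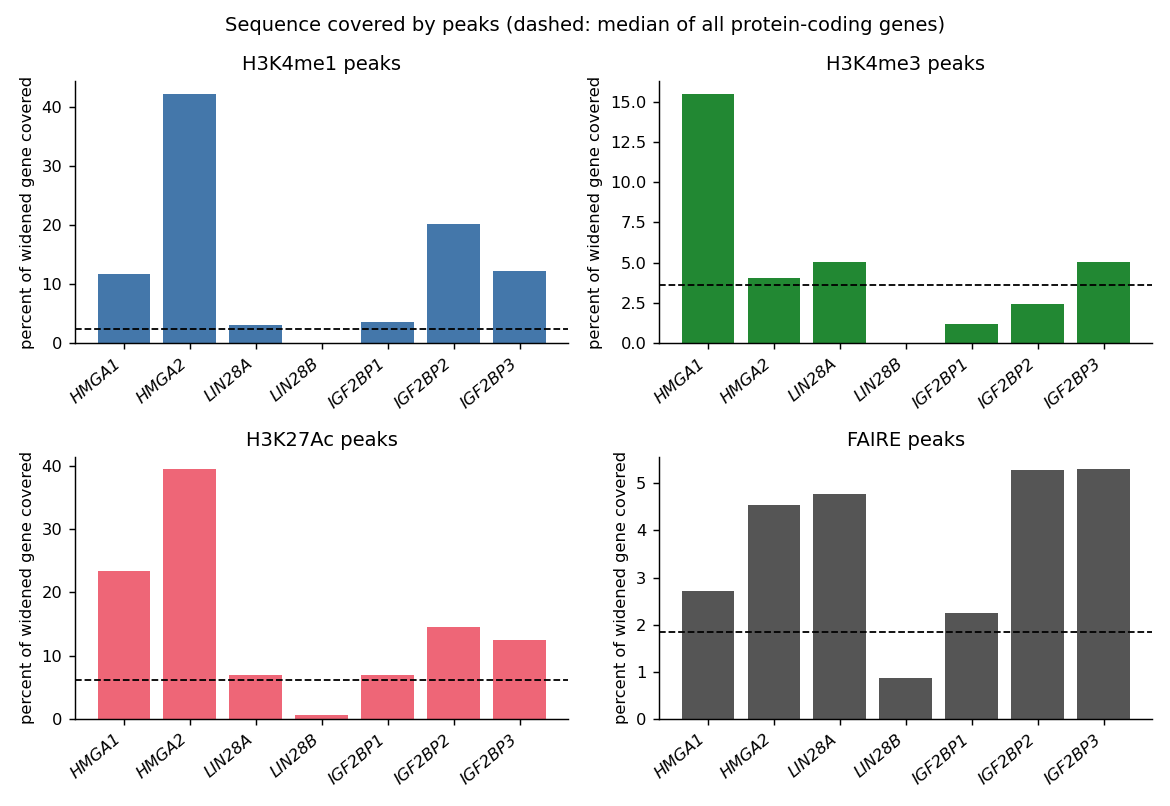
Percent of each gene, widened by 50 kb on both sides, that the peaks of each list cover, with the median of all protein-coding genes as a dashed line; the 4 panels have different scales. HMGA2 is highest for H3K4me1 (42.3%) and H3K27Ac (39.5%), HMGA1, in the shortest window (109.36 kb), is highest for H3K4me3 (15.5%, with the SMIM29 promoter and 2 upstream peaks included), and LIN28B is lowest in every panel.

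IGF2BP2 and IGF2BP3, which encode mRNA-binding proteins of the IGF2BP family, were the nearest pair in coverage among the 7 genes. Each lay nearer still to genes outside the group, which are named below. The percent of the widened gene covered was 20.2% and 12.3% for H3K4me1, 2.43% and 5.06% for H3K4me3, 14.6% and 12.4% for H3K27Ac, and 5.28% and 5.3% for FAIRE, in that order of genes. Their FAIRE coverage was the highest of the 7 genes, and the median over all genes was 1.84%. Every peak of IGF2BP2 had its centre inside the gene, including 10 H3K4me1, 8 H3K27Ac and 15 FAIRE peaks. Intron 2 of IGF2BP2 held 8 of these H3K4me1 peaks, 6 H3K27Ac peaks and 9 FAIRE peaks. The widest of them, an H3K4me1 peak of 11264 bp, was centred 95.3 kb from the start and covered an H3K27Ac peak of 8413 bp with a score of 3100 and 3 FAIRE peaks.

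The start sites of IGF2BP2 differed among themselves. H3K4me3 and H3K27Ac (8935 bp) spanned the canonical start at 185542830, whereas neither H3K4me1 nor FAIRE reached within 1 kb of it. The nearest H3K4me1 peak (5393 bp, score 254) lay 1764 bp inside the gene, and the nearest FAIRE peak (height 64.6) lay 2456 bp inside. Both lay within 1 kb of the start at 185538919, where a protein-coding transcript begins and another FAIRE peak had a height of 89.9. A further start, at 185407026 in intron 6, belongs to a transcript without a defined coding frame. It had the tallest FAIRE promoter peak of the members (chr3:185406232-185407673, height 144), with H3K4me1 (3527 bp, score 389.5) and H3K27Ac (3260 bp, score 876) but no H3K4me3. In all, 7 of the 10 start sites had H3K4me3, 8 had H3K27Ac, 4 had H3K4me1 and 4 had FAIRE.

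IGF2BP3 had 16 start sites, of which 10 had H3K4me3, 13 had H3K27Ac, 7 had H3K4me1 and 11 had FAIRE. Its canonical start had H3K4me3, H3K27Ac (8160 bp) and a FAIRE peak of 1466 bp (chr7:23509297-23510762, height 61.8). The nearest H3K4me1 peak to that start was 38682 bp away. A cluster of internal starts near 23387431, 123.3 kb downstream by the centre of its H3K4me3 peak, was marked in all 4 lists. It had the H3K4me1 promoter peak with the highest score of the members (7919 bp, score 951), an H3K27Ac peak of 5694 bp with a score of 3100, a weak H3K4me3 peak of 2085 bp (score 234) and a FAIRE peak with a height of 90.02. The canonical start thus had H3K4me3 without H3K4me1, whereas these internal starts had both. Another H3K4me3 peak upstream of the gene (2513 bp, score 852) lay over the start of a lncRNA 4156 bp from the canonical start.

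The tallest FAIRE peak of IGF2BP3 was distal, in intron 10 (chr7:23373952-23374908, height 155). It touched a FAIRE peak with a height of 98.6, and both lay within an H3K4me1 peak of 7781 bp and an H3K27Ac peak of 3684 bp. The tallest distal FAIRE peak of IGF2BP2 had a height of 123 and was in intron 2 under H3K4me1 and H3K27Ac. Near the far end of the IGF2BP3 window lay the promoter of MALSU1, marked in all 4 lists, and a FAIRE peak with a height of 112 at the start of GPNMB that shared no base with a histone peak.

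LIN28A, LIN28B and IGF2BP1 lacked promoter peaks, and the remaining marks around them differed. LIN28A has 1 annotated start site, and its gene body held no peak of any list. The nearest H3K4me3 peak, 20462 bp away, was the promoter of DHDDS, and a further H3K4me3 peak was that of HMGN2. H3K4me3 therefore covered 5.06% of the LIN28A window, above the median of 3.62%, without any of it lying at LIN28A. Upstream, at -32.8 kb, an H3K4me1 peak of 3594 bp (score 182) coincided with H3K27Ac (score 864) and with the tallest FAIRE peak of the window (chr1:26703663-26705409, height 75.1). Another 2 FAIRE peaks, at -23.3 kb and -19.3 kb, had no histone peak.

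LIN28B was almost bare. Its 246.72 kb with flanks held 1 H3K27Ac peak and 2 FAIRE peaks, and it was the 1 member of 7 without an H3K4me1 peak, against 37.3% of all protein-coding genes. No H3K4me3 peak lay in the window either, and the nearest was 96489 bp from the canonical start. The H3K4me3 coverage of LIN28B thus lay at the 14.6 percentile of all protein-coding genes. The H3K27Ac peak (1388 bp, score 105) and a FAIRE peak (height 61.8) shared bases in intron 3 at chr6:105493075-105494139 by the FAIRE peak, over RNU6-1106P, a pseudogene of a small nuclear RNA. The other FAIRE peak, downstream of the gene, had a height of 31.5, the lowest of the members. The antisense gene LIN28B-AS1, which starts 178 bp from a LIN28B start, likewise had no promoter peak.

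IGF2BP1 had no peak within 1 kb of its 6 start sites, but an H3K4me3 peak of 1879 bp lay in intron 2 (chr17:47080374-47082252, score 1164), 5627 bp from the canonical start. It was more than 1 kb from every annotated start of any gene. An H3K27Ac peak with a score of 96.8 shared its bases, with neither H3K4me1 nor FAIRE. The score of 1164 lay at the 30.2 percentile of the H3K4me3 list, so the peak was among the weaker ones. A lncRNA that starts 6 bp from an IGF2BP1 start had no promoter peak. Upstream at -24.9 kb was the tallest FAIRE peak of the gene (chr17:47049410-47050359, height 124), inside an H3K27Ac peak (score 386) without H3K4me1. Downstream lay 3 H3K4me1 peaks, which all shared bases with H3K27Ac.

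Over the 7 genes together, overlaps between the lists were counted next, beside the same shares of each whole list. Of 38 H3K4me1 peaks, 31 (81.6%) shared a base with an H3K27Ac peak, against 74.7% of the whole list. FAIRE peaks were shared by 22 of the 38 (57.9%), against 71.4%, and HMGA2 supplied 10 of the 16 H3K4me1 peaks without one. Of 45 H3K27Ac peaks, 31 (68.9%) shared a base with H3K4me1, against 54.6%, and at IGF2BP2 all 8 did so. FAIRE overlapped 27 of the 45 H3K27Ac peaks, against 68.2% of the whole list. Of 52 FAIRE peaks, 41 (78.8%) shared a base with some histone peak, against 80.4%, and 5 of the 11 without one were at IGF2BP2.

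**Figure D4:**
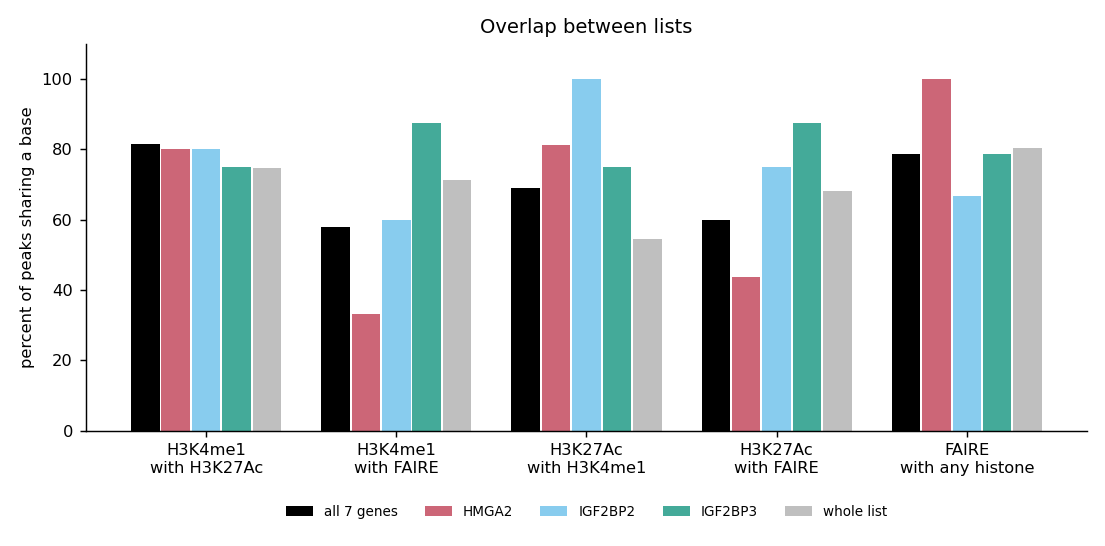
Percent of peaks in the first list of each pair that share at least 1 base with the other, for the 7 genes together, for the 3 genes with the most peaks and for the whole list. For H3K4me1 with FAIRE, HMGA2 is at 33.3% and the whole list at 71.4%.

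The sequence of the distal FAIRE peaks is shown for the tallest of HMGA2, IGF2BP3 and IGF2BP1, because these peaks differ in the motif sought. Distal here means more than 1 kb from every start site of the member and of other protein-coding genes. Starts of lncRNAs were not excluded, and the HMGA2 peak covers one, at 66342259. Each run is the central 300 bases on the plus strand of GRCh37, with matches to the AP-1 motif TGANTCA in capitals. They lie at chr12:66342378-66342677 for HMGA2 and chr7:23374281-23374580 for IGF2BP3, both intronic, and at chr17:47049735-47050034 upstream of IGF2BP1.
HMGA2 distal FAIRE peak: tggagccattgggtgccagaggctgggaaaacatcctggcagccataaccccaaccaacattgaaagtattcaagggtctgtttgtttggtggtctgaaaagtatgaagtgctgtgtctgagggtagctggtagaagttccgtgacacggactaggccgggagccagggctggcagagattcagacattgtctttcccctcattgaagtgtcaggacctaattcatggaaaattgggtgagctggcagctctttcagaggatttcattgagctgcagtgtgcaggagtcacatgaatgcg
IGF2BP3 distal FAIRE peak: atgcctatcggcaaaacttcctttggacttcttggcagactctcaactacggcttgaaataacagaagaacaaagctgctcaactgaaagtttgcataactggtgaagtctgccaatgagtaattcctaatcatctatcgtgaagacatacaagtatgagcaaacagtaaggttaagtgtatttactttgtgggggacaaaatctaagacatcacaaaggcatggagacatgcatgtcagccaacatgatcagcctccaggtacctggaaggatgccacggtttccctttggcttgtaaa
IGF2BP1 distal FAIRE peak: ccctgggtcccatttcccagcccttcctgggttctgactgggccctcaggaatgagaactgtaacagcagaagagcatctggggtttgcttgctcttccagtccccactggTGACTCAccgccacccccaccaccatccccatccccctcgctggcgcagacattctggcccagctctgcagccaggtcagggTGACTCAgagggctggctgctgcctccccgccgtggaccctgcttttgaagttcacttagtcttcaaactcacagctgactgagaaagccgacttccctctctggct
The IGF2BP1 run had 2 matches, whereas the runs of the taller peaks of HMGA2 and IGF2BP3 had none. The motif reads the same on both strands. Of the 52 FAIRE peaks of the members, 51 were read for motifs, and 23 of these (45.1%) held it in their central 300 bases, against 39.1% of 46536 FAIRE peaks. Among member peaks with a height of at least 83.3 it was found in 12 of 18, and in the other member peaks in 11 of 33. In the whole list, the share was 44.1% among the 11634 peaks with at least that height and 37.5% among the other 34902. TEAD motifs (GGAATG) were found in 13 of the 51 peaks and in 21.4% of all FAIRE peaks, TATAAA in 15 and in 19.5%, and CCAAT in 16 and in 38.1%. GC boxes were found in 2 and in 11.6%, and E-boxes in none and in 4.59%.

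**Figure D5:**
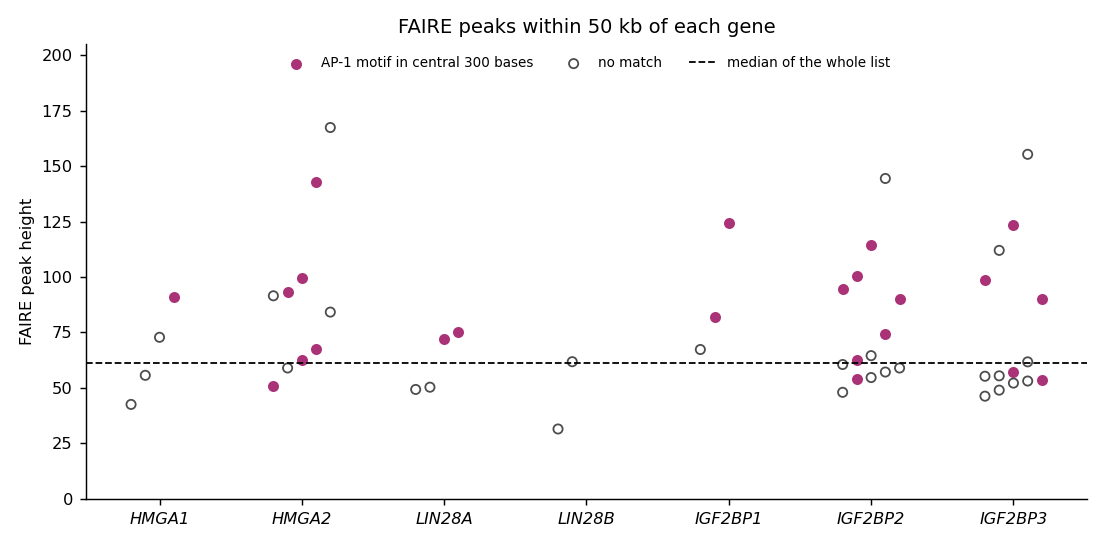
Height of 51 of the 52 FAIRE peaks within 50 kb of the 7 genes, as the deposited list gives it, with filled points for peaks that hold the AP-1 motif in their central 300 bases and a dashed line at the median height of the whole list, 61.1. The tallest peaks of HMGA2 (167.4), IGF2BP3 (155) and IGF2BP2 (144) are open points.

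Genes that act with these families were also examined. LIN28 proteins act on let-7, whose seed, bases 2 to 8, is in capitals here in let-7a from RefSeq (GRCh38.p14).
let-7a-5p: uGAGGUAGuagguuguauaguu
All 12 let-7 hairpin genes considered matched this table and shared 1 seed. Within 50 kb of the hairpins, H3K4me1 peaks were found for 9 of 12, H3K4me3 for 10, H3K27Ac for 11 and FAIRE for 9. Within 50 kb of the canonical start, 54.6% of 19819 protein-coding genes had an H3K4me1 peak, 82.3% an H3K4me3 peak, 83.5% an H3K27Ac peak and 79.8% a FAIRE peak, so that the hairpins were not set apart by these counts. Hairpins of a cluster share these peaks, as MIRLET7A1, MIRLET7D and MIRLET7F1 do. MIRLET7I lay within H3K4me3 and H3K27Ac peaks. MIRLET7C had an H3K4me3 peak 1972 bp away, but its nearest H3K27Ac peak was 688172 bp away.

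The gene lists below are to be read beside the shares of all protein-coding genes with a promoter peak, 67.3% for H3K4me3, 63.5% for H3K27Ac, 20.0% for H3K4me1 and 39.3% for FAIRE. All 10 genes that make, degrade or modify let-7 precursors, among them DROSHA and DICER1, which cut the precursors, and TUT4, TUT7 and DIS3L2, which tail and degrade them where LIN28 is bound, had H3K4me3 and H3K27Ac promoter peaks. H3K4me1 was found at 3 of the 10 and FAIRE at 5, near those shares. The let-7 targets and growth genes, 13 in number, all had H3K4me3 and H3K27Ac at their promoters, with H3K4me1 at 4 and FAIRE at 4, again near those shares. The widest H3K4me3 peak of these was at CCND1, the cyclin D1 gene, with 10324 bp, close to the width at HMGA1, and CCND1 had no FAIRE promoter peak.

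Partners and client mRNAs of IGF2BP proteins had H3K4me3 at 8 of 9 genes, H3K27Ac at 8, FAIRE at 6 and H3K4me1 at 2, with CD44 also among the markers above. The exception for H3K4me3 was IGF2, the fetal growth factor whose mRNA gave the IGF2BP family its name, which had no promoter peak in any list. Other genes with fetal use were mixed. Of 9, 5 had H3K4me3, 3 had H3K27Ac, 1 had H3K4me1 and 1 had FAIRE. GPC3, CEACAM5, DLK1 and H19 had no promoter peak in any list, and SALL4 and TRIM71 had H3K4me3 alone, with scores of 1960 and 122. AFP, the alpha-fetoprotein gene, had a peak in all 4 lists, but its H3K4me3 peak was 882 bp wide with a score of 74.9. PEG10, an imprinted gene, had an H3K4me3 peak of 5174 bp.

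Finally, each member was matched to the protein-coding genes with the most similar coverage, by the Euclidean distance over 4 values, log2 of 1 plus the percent covered in each list. HMGA2 lay farther from its nearest genes than any other member, and these were EGFR at 0.72, BLID at 0.72 and TNS4 at 0.80. For EGFR, which encodes the receptor of epidermal growth factor, H3K4me1 covered 31.5% and H3K27Ac 27% of the widened gene. HMGA1 was closest to LMNB2 (0.20), HES3 (0.20) and P4HB (0.23). LIN28A was closest to TYMS (0.20), CHEK2 (0.23) and ACTR1B (0.28), and LIN28B to ASXL3 (0.06), SPHKAP (0.11) and GLRA2 (0.18), 3 genes that like it had no H3K4me1 or H3K4me3 peak. IGF2BP1 was closest to FBN1 (0.10), GRK1 (0.20) and AGPAT4 (0.24). IGF2BP2 was closest to ANTXR2 (0.10), GUCA1ANB (0.14) and MRPS10 (0.15), and IGF2BP3 to SEC14L1 (0.07) and ZBTB38 (0.10). Among the members themselves, IGF2BP2 and IGF2BP3 were the nearest pair at 1.08, and HMGA2 and LIN28B the farthest at 7.72.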

How the data were processed

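The 4 lists analysed came from H3K4me1, H3K4me3 and H3K27Ac ChIP-seq and from FAIRE-seq of MDAMB231 cells, each called by the authors on 2 samples combined. The study's methods state alignment to GRCh37 with BWA, removal of duplicates and of reads with low mapping quality with Samtools, MACS at default settings against input for histone marks and FindPeaks against input for FAIRE. The submitters' processing notes name TopHat and HOMER beside hg19, without saying for which step. In the deposited histone lists the score is the MACS p-value on a log10 scale, times minus 10, with a threshold of 1e-05, that is a score of 50. The deposited FAIRE value gives, for each peak, how high its signal (coverage) rose. Rows were read as BED intervals and are given 1-based. Of the FAIRE peaks, 3791 begin where the previous one ends, and each was counted as a peak.

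Gene bounds, introns and start sites were taken from GENCODE release 44 lifted to GRCh37, with introns numbered along the canonical transcript. Peaks sharing 1 base or more were found with pandas 2.3.3 and numpy 2.4.6, and the counts were checked against bedtools 2.31.1. Shares of all promoters were taken over the protein-coding genes with a canonical transcript in the annotation. The members, gene lists and rules were chosen with earlier results of these data known. The genes named were the members, the gene lists, protein-coding genes within 50 kb, and for each member up to 3 genes most alike; the peaks named first were the widest promoter peak, the nearest peak where there was none and the tallest distal FAIRE peak, and further peaks were chosen after their values were seen. The promoter sequence of HMGA2 and IGF2BP1, the sequence of 1 IGF2BP2 FAIRE peak and 1 of the genes most alike to IGF2BP3 are not reported here. MATR3 matched more than 1 gene identifier and was not analysed here. No test was made, since the lists hold no replicates. Alternatives were other promoter windows and start sites, stricter peaks (score of 100 or more, FAIRE at or above the median height), the peak centre in place of a shared base, and other flanks.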

Additional observations from a re-analysis of the deposited data

How the results depend on the processing

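No paired analysis was possible because both samples of an assay were combined in 1 list. Of 65 values recomputed under another setting for 14 results, 56 stayed within 1.5 times the value reported. With the peak centre inside the promoter, 2 members in place of 4 had an H3K4me1 promoter peak and 2 in place of 4 an H3K27Ac promoter peak, IGF2BP2 and IGF2BP3 in both cases, since those peaks of HMGA1 and HMGA2 are centred more than 1 kb from every start site of the gene. The share of all protein-coding genes with an H3K4me1 promoter peak was then 8.64%. With stricter peaks, that share was 11.2%, the share for FAIRE was 24.4%, 31 FAIRE peaks remained around the members and 27 of them shared a base with a histone peak. No share of the whole list is given beside this last count, so it is not compared with the background. HMGA2 lost its H3K4me1 promoter peak and HMGA1 its FAIRE promoter peak under that setting, by score and height. Without flanks the members held 6 H3K4me3 peaks, and with flanks of 100 kb they held 27. Counting touching FAIRE peaks as 1 region, a setting chosen after seeing the data, gave 44. The lists do not give the number of reads behind them, which limits what a missing peak says.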
